A study of Rattus norvegicus with 23 samples.

Results

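The 28 genes described here are enzymes of the mevalonate and sterol pathway, the sterol regulatory element-binding proteins (SREBPs) with their regulators, the sterol carrier Stard4 and the fatty acid enzymes Fasn and Scd. They were chosen by name, and their rows were taken from a table of 30562 genes by gene symbol. All 28 were found, and all 28 passed the filter on low counts, which kept 15271 genes for testing. The 23 bulk RNA-seq libraries were made from polyadenylated RNA of femora, all from female Wistar rats. Healthy controls (n = 4) carried titles with the words standard and saline. The other 19 libraries came from MetOP rats, a model of metabolic osteoporosis in which rats are given a high-fat diet together with L-NAME, which blocks nitric oxide synthase. MetOP rats received saline (n = 5), semaglutide (n = 5), PYY3-36 (n = 4, called PYY) or semaglutide together with PYY3-36 (n = 5, called combination). PYY3-36 is a peptide hormone of the gut that lowers food intake, and semaglutide mimics the gut hormone GLP-1. All 19 MetOP libraries therefore share the diet and L-NAME exposure, and the healthy group is the only one labelled as free of the model. Titles of the MetOP libraries hold a further abbreviation, lfd, of unstated meaning, which leaves the diet at sampling unknown, and age, dose and length of treatment are not stated in the labels. The treatment labels of the 4 PYY libraries end in different numbers, so their common treatment rests on their shared title. The labels do not say whether each library is a separate animal, and p-values measure only the spread between these samples, which may be technical. Libraries are named by group and by the library name in their labels.

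Cells build cholesterol from acetyl-CoA. The mevalonate arm leads to farnesyl diphosphate, which also feeds protein prenylation, and a later arm leads from squalene through lanosterol to cholesterol. When sterols are scarce in the endoplasmic reticulum, SCAP carries SREBP precursors to the Golgi, where they are cleaved, and the released fragments switch on the genes of the pathway. INSIG1 and INSIG2 hold SCAP back when sterols are plentiful, and Insig1 is itself an SREBP target. SREBP2, made from Srebf2, acts mainly on cholesterol genes, while SREBP1c, made from Srebf1, acts mainly on fatty acid genes such as Fasn and Scd. In bone, farnesyl diphosphate synthase is known as the enzyme in osteoclasts that nitrogen-containing bisphosphonates inhibit.

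SREBPs work with the factors NF-Y, which binds CCAAT, and Sp1, which binds GC boxes such as GGGCGG. The promoters of 4 members are shown because their counts stand in the comparisons below, 3 of them as targets that SREBPs are known to act on (Insig1, Hmgcs1 and Cyp51) and 1 (Ebp) as an enzyme whose levels in semaglutide libraries did not overlap with MetOP saline. Each runs 5′ to 3′ from 250 bases before to 50 bases after the transcription start, from RefSeq in build GRCr8, with CCAAT and GGGCGG on either strand in capitals (ATTGG and CCGCCC are their reverse complements). The windows lie at chr4:8057720-8058019, - strand for Insig1, chr2:53382054-53382353, + strand for Hmgcs1, chr4:30991443-30991742, + strand for Cyp51 and chrX:16971212-16971511, + strand for Ebp.
Insig1 promoter: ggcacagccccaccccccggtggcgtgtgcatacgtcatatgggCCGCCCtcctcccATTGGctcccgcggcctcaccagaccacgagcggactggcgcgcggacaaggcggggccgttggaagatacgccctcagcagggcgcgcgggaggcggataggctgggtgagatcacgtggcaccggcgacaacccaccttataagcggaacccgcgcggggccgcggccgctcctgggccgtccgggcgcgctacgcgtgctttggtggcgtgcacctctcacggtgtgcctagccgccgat
Hmgcs1 promoter: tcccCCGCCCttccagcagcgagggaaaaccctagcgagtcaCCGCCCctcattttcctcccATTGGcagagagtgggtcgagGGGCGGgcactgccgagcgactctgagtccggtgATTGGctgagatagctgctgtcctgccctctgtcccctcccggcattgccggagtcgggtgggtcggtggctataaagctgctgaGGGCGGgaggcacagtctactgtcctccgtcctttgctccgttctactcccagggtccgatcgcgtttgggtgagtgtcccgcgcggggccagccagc
Cyp51 promoter: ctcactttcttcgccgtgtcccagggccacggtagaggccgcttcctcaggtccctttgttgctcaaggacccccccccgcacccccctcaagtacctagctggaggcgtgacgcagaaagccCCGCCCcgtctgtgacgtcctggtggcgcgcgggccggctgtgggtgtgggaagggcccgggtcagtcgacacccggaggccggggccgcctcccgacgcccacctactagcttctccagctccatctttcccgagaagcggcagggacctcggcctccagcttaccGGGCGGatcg
Ebp promoter: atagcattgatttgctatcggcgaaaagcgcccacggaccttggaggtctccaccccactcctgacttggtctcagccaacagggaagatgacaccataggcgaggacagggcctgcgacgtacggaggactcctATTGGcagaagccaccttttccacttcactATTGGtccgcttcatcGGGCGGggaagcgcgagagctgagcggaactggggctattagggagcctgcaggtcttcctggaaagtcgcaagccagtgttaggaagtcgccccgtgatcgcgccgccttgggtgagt

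RefSeq promoter entries were matched for 23 of the 28 members, with 24 windows because Srebf1 had entries at separate starts. CCAAT, searched on both strands, was found in 19 of the 24 windows, which belong to 18 of the 23 genes. Counted by window, the share was 37.5% of the 33469 promoters in the table and 36.9% of the 12542 that belong to tested genes. GGGCGG was found in 19 of the 24 windows as well (18 of the 23 genes), against 33.1% of all promoters and 57.9% of those of tested genes. A sterol regulatory element written as TCACNCCAC was matched in 0 of the 24 windows (1.12% of all promoters). The looser TCANNCCAC, which contains the first, was matched in 2, those of Fdps and Insig2 (3.96% of all promoters). These are matches of letters in fixed windows and not measured binding sites.

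Library totals ran from 19.25 to 40.65 M counts (M is the unit that counts per M, CPM, are given in). Mitochondrially encoded genes took 46.1 to 83.9% of them, and the remaining genes shared 4.28 to 16.1 M counts. The 28 members together took 0.0464 to 0.111% of these other counts. Markers of skeletal muscle were detected in every library, 12 of 12 matched genes with none at 0, and their summed level ran from 1632 to 67618 CPM (scaled by TMM factors, as all CPM here). Summed osteoblast markers ran from 148 to 6956 CPM, and 1 of their 9 genes, Phex, was at 0 in some libraries. The libraries labelled femora thus held osteoblast RNA, and muscle RNA in amounts that differed widely. In bulk tissue, fewer cells of a type and less RNA per cell cannot be told apart.

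Library PYY A216 stood apart for these genes. It held the highest level of 5 members and was among the 3 highest libraries for 16 of 28, with a median rank of 21 of 23. It also had low muscle (mean log2 CPM 7.30, against a median of 10.66 over all libraries) and adipocyte marker levels (1.22, against 2.08). It held the highest osteoblast (7.35), osteoclast (4.71) and chondrocyte (7.78) marker levels. The part of tissue makeup in its high values was not tested.

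**Figure D1:**
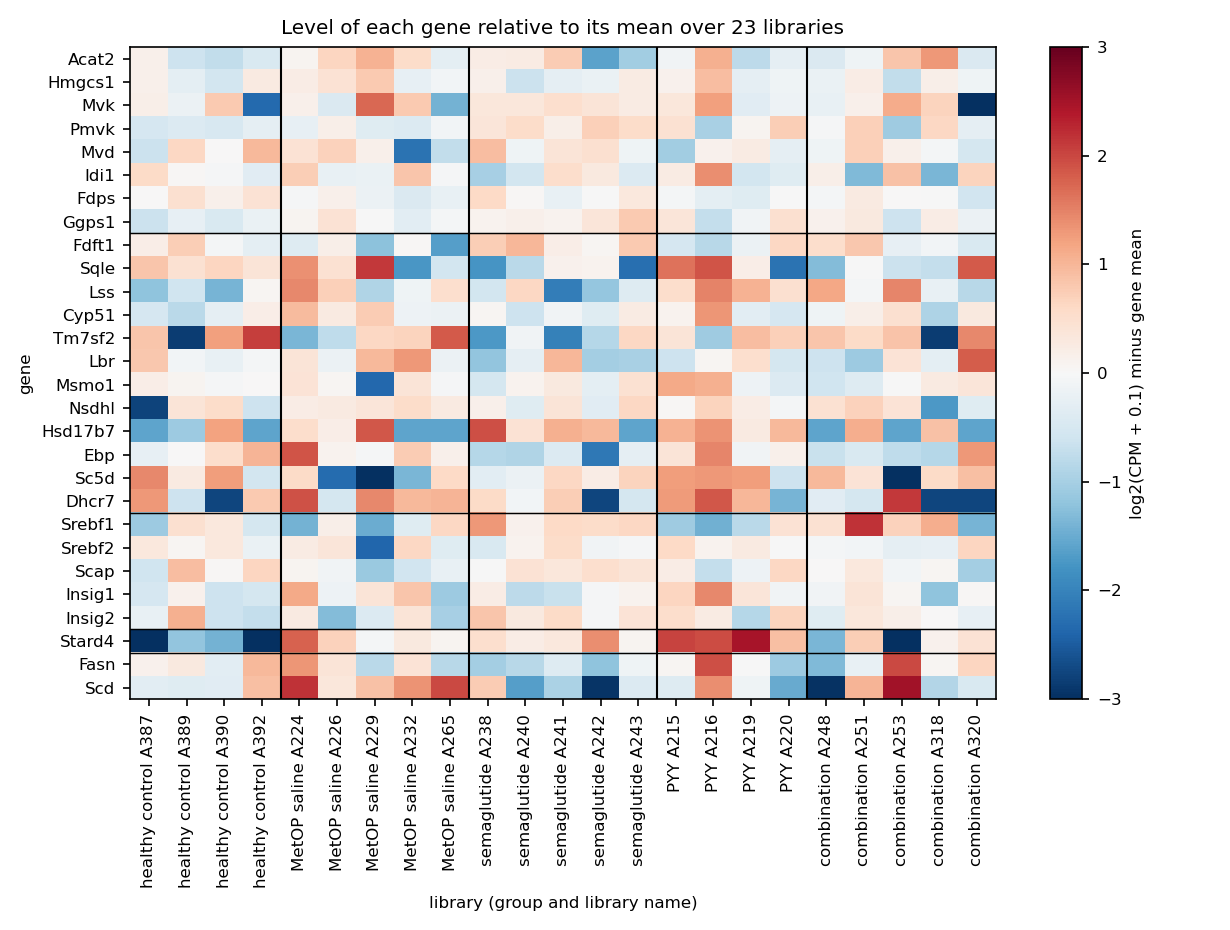
Heat map of the 28 genes (rows, by role) in 23 libraries (columns, by group). Colour gives log2(CPM + 0.1) minus the gene's mean over all libraries, and colours saturate at 3 in either direction. Library PYY A216, in the PYY block, is among the 3 highest for 16 of 28 genes.

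The genes were expressed at low to moderate levels. By FPKM, a measure per transcript length and depth that allows genes to be compared, the highest means over 23 libraries were those of Lbr (7.66 FPKM), Pmvk (5.37), Hmgcs1 (3.34) and Insig1 (3.22). The lowest were Hsd17b7 (0.183 FPKM) and Dhcr7 (0.336). Lbr encodes the lamin B receptor, an inner nuclear membrane protein with sterol reductase activity. The biological coefficient of variation, the spread between libraries beyond counting noise, was smallest for Fdps (24.2%) and Ggps1 (30.3%) and largest for Hsd17b7 (163%) and Dhcr7 (125%), against a common value of 69.9% over all tested genes.

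No member passed an adjusted p of 0.05 in edgeR's quasi-likelihood test in any of the 8 comparisons made. They set MetOP saline against healthy control, the 3 drug groups against MetOP saline and the drug groups against each other, and the last was the interaction, which asks whether the combination departs from the sum of the single log2 effects. Over all tested genes the share called was 0% in 7 of the 8 and 0.00655% (1 gene, which is no member) in semaglutide versus PYY. These counts over all genes were not stable, since 1021 genes were called in semaglutide versus PYY without library PYY A220, though no member was. DESeq2 called 504 genes there, 97 in semaglutide versus MetOP saline, 51 in MetOP saline versus healthy control and 3 to 16 in the other 5 comparisons. Stard4 was the only member among them. The comparisons of the 3 drug groups share the MetOP saline libraries, which also stand in the comparison with healthy controls. The values below are therefore given as levels with their spread, as fitted log2 fold changes ± SE, and with p-values after Benjamini-Hochberg adjustment over 15271 genes.

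In MetOP saline against healthy control, 17 of the 28 members had higher and 11 lower fitted levels. The median log2 fold change was 0.32, against 0.04 over all tested genes. At an unadjusted p under 0.05, 2 members were higher (Stard4, Lss) and 2 lower (Scap, Fdps), and 6.55% of all tested genes were below that p. Groups did not overlap for 1 member, Stard4, against 2.78% of all tested genes. In the mevalonate arm 6 of 8 genes and in the squalene to cholesterol arm 8 of 12 were higher, with medians of 0.29 and 0.40 on the log2 scale.

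Stard4, a soluble protein that moves cholesterol between membranes, had the largest difference of the members in this comparison. The gene (ENSRNOG00000020468) lies on chromosome 18 at 24817107 to 24830024 (mRatBN7.2, as are all gene positions here). Healthy controls held 0, 8, 6 and 0 counts, and the libraries without a count allow at most 3, which is 0.107 and 0.178 CPM there. MetOP saline libraries held 129, 37, 13, 31 and 16 counts. Every MetOP saline library was thus above every healthy one, at 1.56 ± 1.01 CPM (SD, n = 5) against 0.153 ± 0.179 (n = 4). The log2 fold change was 3.30 ± 1.06 (edgeR adjusted p = 0.631), and it rests on few counts in the healthy group. With DESeq2 the same gene passed, at 3.36 ± 0.87 with an adjusted p of 0.0358. The PYY libraries held 3.99, 3.8, 5.50 and 1.76 CPM, of which 3 were the highest of all libraries, and the combination held 0.287, 1.58, 0, 1.00 and 1.26 CPM. Library combination A253, at 0 counts, allows up to 0.116 CPM.

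Scap, the carrier of SREBP precursors, stood at 12.8 ± 5.54 CPM in healthy controls (SD, n = 4) and 7.87 ± 2.34 in MetOP saline (n = 5). The groups overlapped, since healthy control A387 held 6.52 CPM and MetOP saline A224 held 10.6. The log2 fold change was -0.70 ± 0.32 (edgeR adjusted p = 0.748), and -0.44 without healthy control A389. Fdps, the bisphosphonate target, was at 21.8 ± 3.26 CPM in healthy controls and 16.4 ± 2.49 in MetOP saline, a log2 fold change of -0.42 ± 0.20 (edgeR adjusted p = 0.758). Lss, which closes the sterol rings to form lanosterol, was at 1.28 ± 0.663 and 3.08 ± 1.83 CPM, a log2 fold change of 1.27 ± 0.61 (edgeR adjusted p = 0.762). Skeletal muscle markers had lower fitted levels in MetOP saline for 12 of 12 genes, with a median of -0.56, and cell cycle markers had higher ones for 11 of 12, with a median of 0.43. Osteoclast markers were higher for 7 of 8 (median 0.85) and chondrocyte markers for 7 of 7 (median 1.23). Adipocyte markers were higher for 7 of 9 (median 0.39). So were macrophage (6 of 7, 0.48), fibroblast (6 of 8, 0.33), erythroid (8 of 10, 0.22) and osteoblast markers (7 of 9, 0.17). None of these markers passed the test. Their part in the values of the members was not tested beyond a fit with the muscle level as covariate, in which the member median was 0.25.

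**Figure D2:**
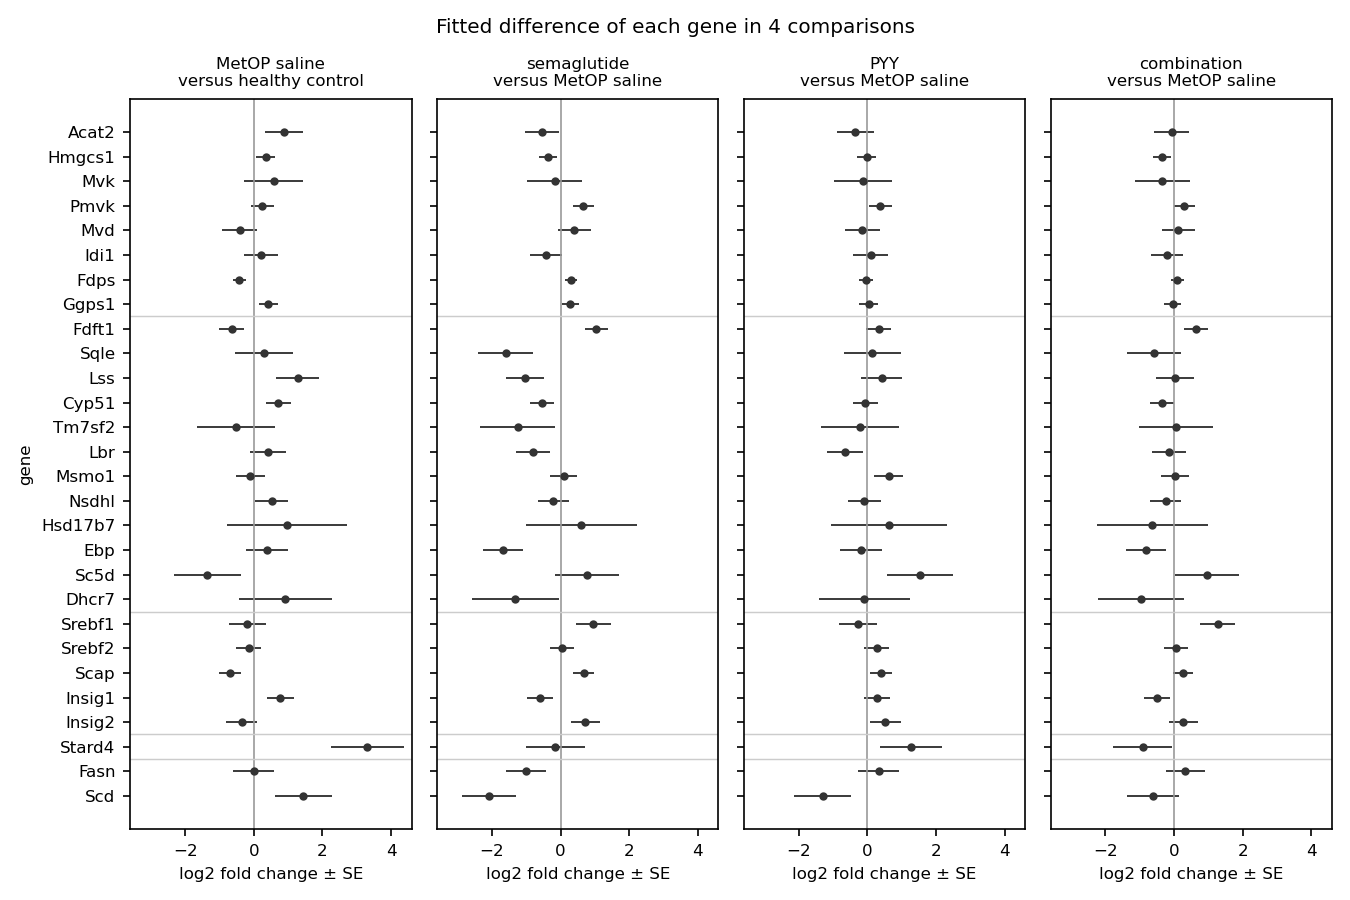
Log2 fold change ± SE (x axes) of the 28 genes (y axis, by role) in MetOP saline versus healthy control and in each drug group versus MetOP saline, fitted by edgeR. Stard4 stands farthest right in the first panel at 3.30, and Scd farthest left in the second at -2.09, and no gene in the 4 panels passed the adjusted threshold.

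Semaglutide was compared with saline within the model. Here 12 members had higher and 16 lower fitted levels, with a median log2 fold change of -0.19 against -0.04 over all tested genes. At an unadjusted p under 0.05, 3 members were higher (Fdft1, Scap, Pmvk) and 2 lower (Ebp, Scd), against 11.4% of all tested genes. Groups did not overlap for 2 members, Pmvk and Ebp, against 4.47% of all tested genes. The mevalonate arm was split evenly, with 4 of 8 higher, and 8 of 12 genes of the squalene to cholesterol arm were lower, with a median of -0.67. In SREBP control 4 of 5 genes were higher, all but Insig1.

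Ebp (ENSRNOG00000004903) encodes a sterol isomerase of the late pathway and lies on chromosome X at 14299448 to 14305826. MetOP saline libraries held 5.80, 1.64, 1.47, 2.61 and 1.70 CPM, and semaglutide libraries held 0.783, 0.754, 1.10, 0.264 and 1.23 CPM. The highest semaglutide library was below the lowest saline one. The log2 fold change was -1.68 ± 0.60 (edgeR adjusted p = 0.393), and without single libraries it ran from -1.86 to -1.16. Ebp was at 2.04 ± 0.845 CPM in healthy controls and at 2.35 ± 1.34 with PYY. In the combination 4 libraries lay between 0.793 and 1.07 CPM and combination A320 at 3.83.

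Fdft1 (ENSRNOG00000021314), squalene synthase, takes farnesyl diphosphate into sterol synthesis and lies on chromosome 15 at 37412146 to 37440287. It was at 14.1, 21.1, 7.88, 18.9 and 5.87 CPM in MetOP saline, and at 30.7, 37.1, 21.2, 19.4 and 31.9 CPM with semaglutide. Only semaglutide A242, at 19.4, was below the highest saline library. The log2 fold change was 1.05 ± 0.34 (edgeR adjusted p = 0.389). The sign was opposite for 8 genes of the same arm, among them Ebp, Lss (-1.03, edgeR adjusted p = 0.478) and Sqle (-1.60, edgeR adjusted p = 0.446). Sc5d (0.77), Hsd17b7 (0.60) and Msmo1 (0.09), also further down the arm, had the sign of Fdft1. For Fdft1, healthy controls were at 21.3 ± 6.81 CPM, between MetOP saline and semaglutide.

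Pmvk, phosphomevalonate kinase, ran from 4.56 to 6.84 CPM in MetOP saline and from 6.89 to 10.1 with semaglutide, so the groups were separated by a narrow gap. Its log2 fold change was 0.66 ± 0.31 (edgeR adjusted p = 0.424). Scap was at 12.6 ± 1.64 CPM with semaglutide, and its log2 fold change was 0.67 ± 0.30 (edgeR adjusted p = 0.409). Scd (ENSRNOG00000013552), which introduces the double bond of oleate, was at 16.9, 4.67, 6.81, 9.59 and 14.9 CPM in MetOP saline and at 6.34, 1.11, 1.86, 0.395 and 2.75 with semaglutide. A single semaglutide library, A238, reached into the saline range. The log2 fold change of Scd was -2.09 ± 0.79 (edgeR adjusted p = 0.393). Its paralog Scd2, also a stearoyl-CoA desaturase, had a log2 fold change of -1.93 ± 0.48 (edgeR adjusted p = 0.371), and reads of these paralogs could be split between them in counting.

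Marker lists moved with this comparison as well. With semaglutide the 12 of 12 cell cycle markers had lower fitted levels (median -1.46, median summed level 72.8 CPM against 260 in MetOP saline), as did 9 of 9 osteoblast markers (median -2.42, 177 to 767 CPM against 371 to 6832). The 7 tested chondrocyte markers were lower too (median -5.89), of 8 in the list, of which 6 were at 0 in some libraries. Erythroid (10 of 10, median -1.58), osteoclast (8 of 8, -2.08), macrophage (7 of 7, -1.17), fibroblast (7 of 8, -1.77) and neutrophil markers (8 of 9, -0.64) were also lower. Adipocyte markers were lower for 7 of 9 genes (median -0.72), though their median summed level was 402 CPM against 233 in MetOP saline. Muscle markers were higher for 12 of 12 genes, with a median of 0.75. The mitochondrial share of counts was 54.4 to 67.4% with semaglutide and 65.6 to 83.9% in MetOP saline. None of these markers passed the adjusted threshold, and the part of tissue makeup in the values of Ebp, Scd, Fdft1 and Pmvk was not tested beyond the muscle covariate, with which Ebp was at -1.44 and Fdft1 at 0.95.

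**Figure D3:**
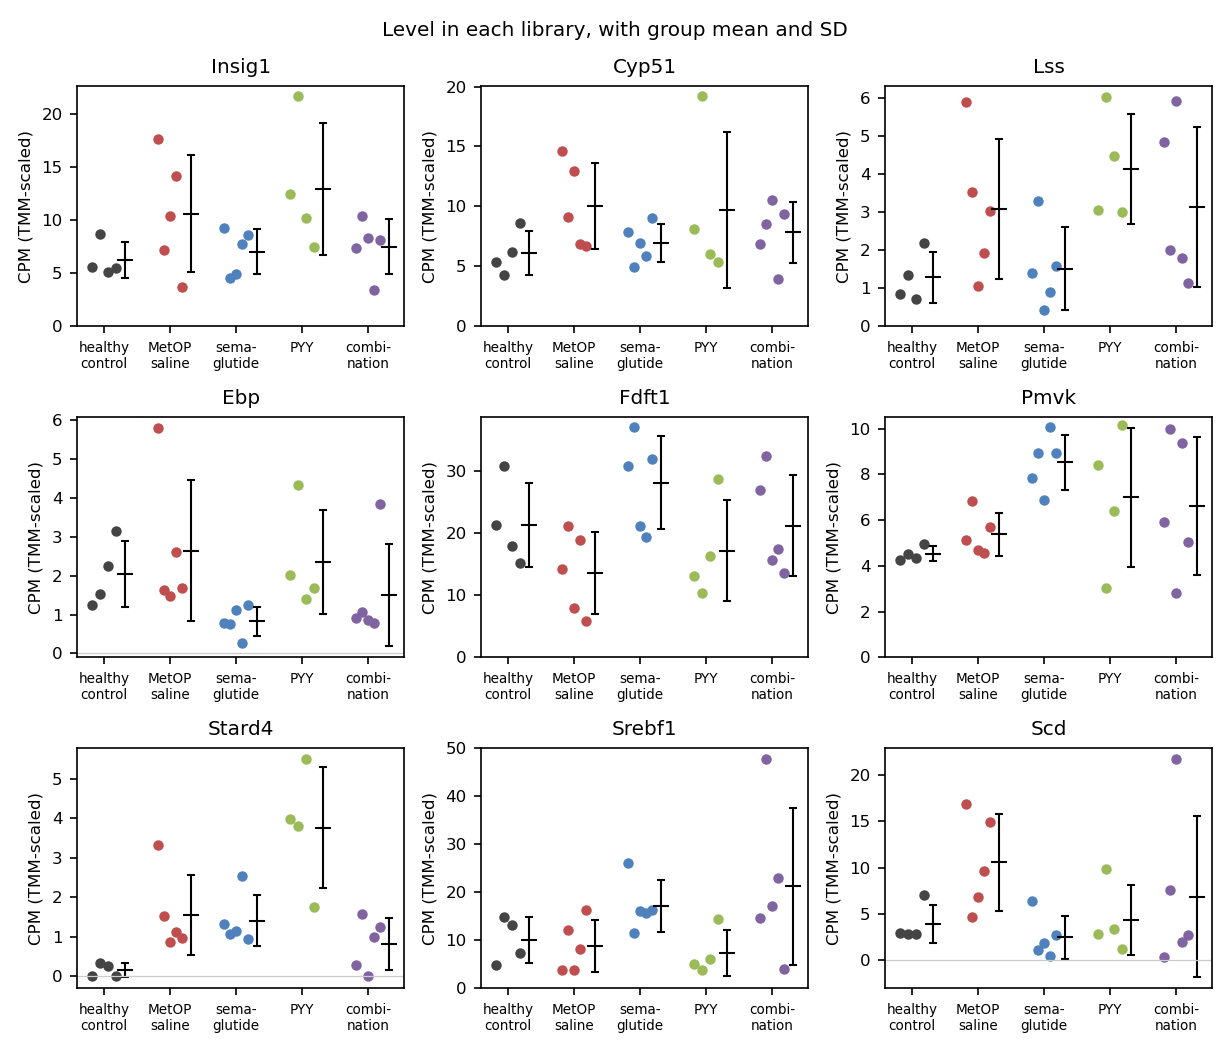
TMM-scaled CPM (y axes, linear) of 9 members in each library (points) of the 5 groups, with group mean and SD (black bars beside the points). The semaglutide points of Ebp lie below, and those of Pmvk above, all MetOP saline points, and Stard4 is near 0 in the 4 healthy controls.

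PYY against MetOP saline left the members split with 15 higher and 13 lower, and their median log2 fold change was 0.07 against -0.01 over all tested genes. No member was under an unadjusted p of 0.05, against 4.85% of all tested genes, and 0 members had groups that did not overlap, against 1.93%. The smallest p-values were those of Sc5d, a sterol desaturase, at 1.53 ± 0.97, Scd at -1.30 ± 0.83 and Msmo1, a methylsterol oxidase, at 0.62 ± 0.42 (edgeR adjusted p = 1.0 for each). Without PYY A216 Scd was at -2.10, and without MetOP saline A229 Msmo1 was at 0.35. Sc5d held 2.56, 2.61, 2.54 and 0.614 CPM in the PYY libraries, so PYY A220 stood below the others, and 1.54, 0.123, 0, 0.326 and 1.57 CPM in MetOP saline, where 0 allows up to 0.2 CPM. Msmo1 was at 10.01 and 9.59 CPM in PYY A215 and PYY A216, the 2 highest of all libraries, but at 4.05 and 3.35 in the others of that group. Insig1 was at 13.0 ± 6.2 CPM with PYY and 10.6 ± 5.53 in MetOP saline. Of the markers, endothelial (8 of 8, median 0.94) and fibroblast genes (8 of 8, median 1.18) were higher with PYY. Neutrophil (9 of 9, median -1.30), erythroid (10 of 10, -0.82), cell cycle (12 of 12, -0.76) and muscle markers (11 of 12, -0.62) were lower. None passed the adjusted threshold, and their part in the members' values was not tested.

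For the combination against MetOP saline, 13 members had higher and 15 lower fitted levels, with a median of -0.06 against 0.02 over all tested genes. A single member, Srebf1, was under an unadjusted p of 0.05 and was higher, against 3.06% of all tested genes, and 0 members were free of overlap, against 0.399%. Srebf1 (ENSRNOG00000003463) lies on chromosome 10 at 45007637 to 45029650, and 596 bases of it are shared with Rai1 on the opposite strand. It held 14.6, 47.8, 17.1, 22.9 and 3.99 CPM in the combination and 3.90, 12.0, 3.74, 8.29 and 16.3 in MetOP saline. Combination A251 was the highest and combination A320 among the lowest of all libraries. The log2 fold change was 1.27 ± 0.52 (edgeR adjusted p = 1.0), and 0.74 without combination A251. The next smallest p-values were those of Fdft1, at 0.64 ± 0.34, and Ebp, at -0.82 ± 0.58 (edgeR adjusted p = 1.0 for both). Without combination A320 Ebp was at -1.54, and without MetOP saline A224 at -0.31. Osteoblast (8 of 9, median -1.50), osteoclast (8 of 8, -1.94), chondrocyte (7 of 7, -3.15), fibroblast (6 of 8, -0.87), erythroid (10 of 10, -0.37) and cell cycle markers (12 of 12, -0.27) were lower in the combination, none past the adjusted threshold, and their part was not tested. Muscle markers were higher for 10 of 12 genes (median 0.28), and with the muscle covariate the Srebf1 difference was 1.16.

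Among the drug groups, the combination differed from semaglutide by a member median of 0.06 (0.05 over all tested genes), with 15 higher and 13 lower. Fasn, fatty acid synthase, was the only member under an unadjusted p of 0.05, against 5.65% of all tested genes, and it was higher in the combination by 1.33 ± 0.58 (edgeR adjusted p = 0.816). Its combination libraries held 1.48, 3.29, 15.5, 4.01 and 6.03 CPM, and its semaglutide libraries 1.84, 2.13, 2.93, 1.61 and 3.52. The difference rested on combination A253, without which it was 0.62. Scd stood at 1.47 ± 0.78 and Lss at 1.05 ± 0.57 (edgeR adjusted p = 0.816 for both). Scd was also highest in combination A253, at 21.8 CPM, and without that library its difference was 0.35 and that of Lss 0.69. Cell cycle (12 of 12, median 1.08), erythroid (10 of 10, 1.26), chondrocyte (7 of 7, 2.65), osteoblast (9 of 9, 0.92), macrophage (7 of 7, 0.91), neutrophil (8 of 9, 0.92) and fibroblast markers (8 of 8, 0.80) were higher in the combination, and muscle markers lower (12 of 12, -0.47). Adipocyte markers were lower as well (7 of 9, -0.27). None of these markers passed the adjusted threshold, and their part in these differences was not tested. No member was free of overlap, against 0.57% of all tested genes.

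The combination against PYY gave 8 members higher and 20 lower, with a median of -0.22 against 0.02 over all tested genes. At an unadjusted p under 0.05 Srebf1 was higher (1.54 ± 0.56, edgeR adjusted p = 0.689) and Stard4 lower (-2.18 ± 0.92, edgeR adjusted p = 0.768), against 6.24% of all tested genes. Stard4 was also the 1 member free of overlap, against 1.59%. Insig1 had the next smallest p, at -0.78 ± 0.39 (edgeR adjusted p = 0.816), and stood at 7.36, 10.4, 8.32, 3.38 and 8.10 CPM in the combination. Without PYY A216 the Insig1 difference was -0.42, and without combination A251 that of Srebf1 was 0.94. Fibroblast (8 of 8, median -2.07), endothelial (8 of 8, -0.81), osteoblast (8 of 9, -1.58), osteoclast (7 of 8, -1.79) and chondrocyte markers (7 of 7, -2.93) were lower in the combination, and neutrophil (8 of 9, 1.54), erythroid (10 of 10, 0.50) and cell cycle markers (11 of 12, 0.42) higher, none past the adjusted threshold. Their part was not tested. Adipocyte markers were lower for 8 of 9 genes (median -0.43), and their part was not tested either. Muscle markers were higher in the combination than with PYY for 11 of 12 genes, with a median of 1.05, and with the muscle covariate the Srebf1 difference was 0.78.

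Semaglutide against PYY held the most members under an unadjusted p of 0.05. These were 6, with Srebf1 higher and Lss, Ebp, Insig1, Fasn and Sqle lower in semaglutide, against 16.9% of all tested genes. Of the 28 members 8 were higher and 20 lower, with a median of -0.28 against -0.07 over all tested genes, and 11 of 12 genes of the squalene to cholesterol arm were lower (median -0.64), all but Fdft1. Ebp alone was free of overlap, against 5.87% of all tested genes. Lss was at 1.41, 3.28, 0.419, 0.89 and 1.57 CPM with semaglutide and at 3.06, 6.03, 4.46 and 2.99 with PYY, where semaglutide A240 was the only library to reach into the PYY range. Its log2 fold change was -1.45 ± 0.59 (edgeR adjusted p = 0.233). Ebp stood at -1.50 ± 0.62 (edgeR adjusted p = 0.235) and Insig1 at -0.88 ± 0.39 (edgeR adjusted p = 0.259).

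The size of this contrast depended on library PYY A216. Without it the member median was 0.03 instead of -0.28 and Insig1 was at -0.51. Without PYY A219 the member median was -0.54. With the muscle level as covariate 1 member in place of 6 was under an unadjusted p of 0.05. In that fit Ebp was at -0.81 and Insig1 at -0.74, while Lss did not shrink and was at -1.72. Osteoblast markers were lower with semaglutide than with PYY for 9 of 9 genes (median -2.50) and muscle markers higher for 12 of 12 (median 1.47). Fibroblast (8 of 8, median -2.94), chondrocyte (7 of 7, -5.58), osteoclast (7 of 8, -2.60), macrophage (7 of 7, -1.06), endothelial (8 of 8, -0.96), erythroid (10 of 10, -0.72) and cell cycle markers (12 of 12, -0.61) were lower as well and neutrophil markers higher (9 of 9, 0.60), none past the adjusted threshold, and their part was not tested.

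The interaction of semaglutide and PYY was near 0 for the set, with 14 members on each side and a median of -0.001, against 0.03 over all tested genes. Scd was the 1 member under an unadjusted p of 0.05 (4.58% of all tested genes), at 2.76 ± 1.14 (edgeR adjusted p = 0.999), with mean levels of 10.6 CPM in MetOP saline, 2.49 with semaglutide, 4.31 with PYY and 6.88 with the combination. Scap, at -0.83 ± 0.44, and Lbr, at 1.33 ± 0.72, had the next smallest p-values (edgeR adjusted p = 0.999 for both). Without PYY A216 the member median was 0.30. Without combination A253 Scd was at 1.65 and without PYY A216 at 3.57, and without combination A320 Lbr was at 0.60. Cell cycle (12 of 12, median 1.87), neutrophil (9 of 9, 2.12), erythroid (10 of 10, 2.07), chondrocyte (7 of 7, 2.80), osteoblast (9 of 9, 1.18) and macrophage markers (7 of 7, 1.07) had positive interaction values and endothelial markers negative ones (8 of 8, -0.74), none past the adjusted threshold. Their part was not tested. In the combination Scd ran from 0.382 CPM in combination A248 to 21.8 in combination A253, the lowest and the highest of all 23 libraries.

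The regulators can also be read as ratios within a library, which do not depend on its depth. Insig1, the SREBP-responsive brake, was set against Insig2, which also holds SCAP back but is not a classic SREBP target. The log2 ratio of Insig1 to Insig2 counts was 1.19, 0.51, 1.49 and 1.66 in healthy controls and 2.35, 2.67, 2.27, 1.90 and 1.39 in MetOP saline. It was 0.83, 0.36, 0.20, 1.47 and 1.17 with semaglutide, 1.58, 2.66, 2.72 and 0.69 with PYY, and 1.73, 1.52, 1.35, 0.23 and 1.76 with the combination. In MetOP saline all but 1 library was above every healthy and every semaglutide library. The difference of means was 0.90 between MetOP saline and healthy control (exact two-sided permutation test, p = 0.0476, adjusted p = 0.167 over 14 ratio tests). Between semaglutide and MetOP saline it was -1.31 (exact permutation p = 0.0159, adjusted p = 0.167), where the smallest p the design allows is 0.00794. Between the combination and MetOP saline it was -0.80 (exact permutation p = 0.0397, adjusted p = 0.167). None of the 14 passed after adjustment. A single ratio could not have passed alone even at that smallest p, given the adjustment over 14 tests. The outcome therefore does not show that the ratios were alike.

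Each gene of that ratio overlapped between these groups by itself. Insig1 was at 6.23 ± 1.66 CPM in healthy controls, 10.6 ± 5.53 in MetOP saline and 7.03 ± 2.14 with semaglutide, and Insig2 at 3.03 ± 2.1, 2.37 ± 1.2 and 3.94 ± 0.894. The ratio of Srebf1 to Srebf2 was more variable, from -1.72 in combination A320 to 2.61 in combination A251. Its means were 0.01 ± 0.8 in healthy controls (SD, n = 4), 0.16 ± 1.17 in MetOP saline (n = 5), 0.97 ± 0.71 with semaglutide (n = 5), -0.63 ± 0.98 with PYY (n = 4) and 0.95 ± 1.63 with the combination (n = 5). The difference between semaglutide and PYY was 1.60 (exact two-sided permutation p = 0.0476, adjusted p = 0.167). Srebf2 itself differed by at most 0.28 on the log2 scale in all 8 comparisons and had group means from 8.3 to 9.2 CPM outside the PYY group, whose libraries ran from 8.34 to 12.7 CPM. Its spread was widest in MetOP saline, at 8.3 ± 4.44 CPM (SD, n = 5). There it ran from 1.54 CPM in MetOP saline A229, the lowest of all libraries, to 12.9.

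**Figure D4:**
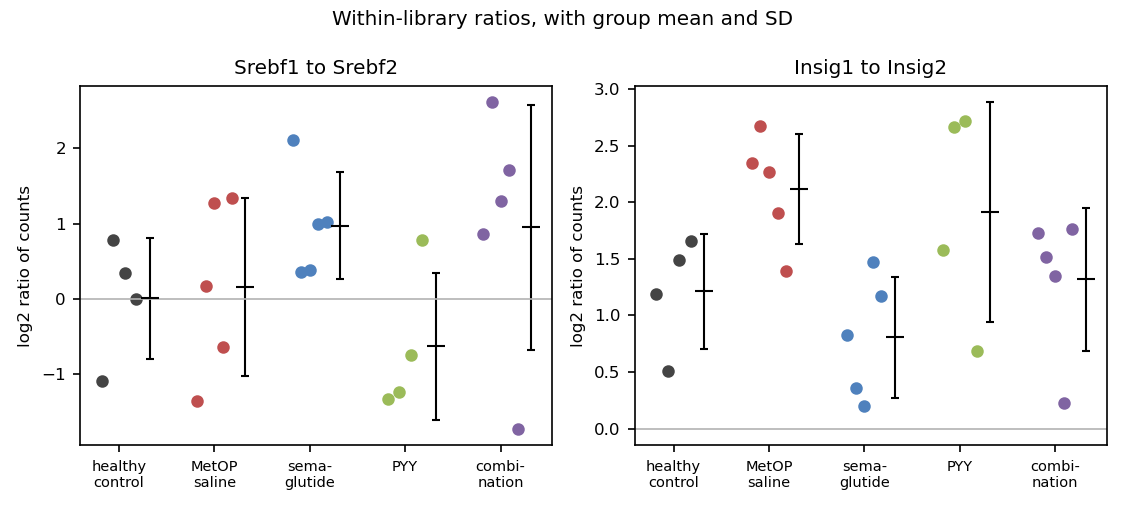
Log2 ratio of counts (y axes) of Srebf1 to Srebf2 and of Insig1 to Insig2 in each library (points) of the 5 groups, with group mean and SD. The semaglutide points of Insig1 to Insig2 lie at 0.20 to 1.47 and those of MetOP saline at 1.39 to 2.67.

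The other members of the mevalonate arm are given by their group means. Hmgcs1, which makes HMG-CoA, had group means from 11.3 ± 2.75 CPM (semaglutide) to 14.6 ± 4.27 (MetOP saline), with 23.04 CPM in PYY A216. Acat2, the cytosolic thiolase of the first step, had means from 1.84 ± 0.591 CPM in healthy controls to 3.4 ± 1.22 in MetOP saline. Mvk, mevalonate kinase, had means from 1.29 to 1.94 CPM and was at 0 in combination A320, which allows up to 0.0942 CPM. Mvd, the decarboxylase, had means from 2.13 to 3.12 CPM and Idi1, the isomerase, from 3.26 to 4.69 CPM. Idi1 shares 100 bases with Wdr37 on the opposite strand. Ggps1, which makes geranylgeranyl diphosphate for prenylation, had means from 5.2 ± 0.738 CPM in healthy controls to 8.53 ± 1.91 with semaglutide. Its healthy libraries ran from 4.31 to 5.92 CPM and its semaglutide ones from 7.24 to 11.8. This pair of groups was not among the comparisons tested. The share of all tested genes whose groups separate there was not counted, so the gap is no result about Ggps1.

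In the squalene to cholesterol arm, Cyp51, the lanosterol demethylase, was at 6.12 ± 1.86 CPM in healthy controls and 6.66 to 14.6 CPM in MetOP saline, a log2 fold change of 0.72. Sqle, squalene monooxygenase, ran from 0.247 CPM (semaglutide A243) to 7.08 (MetOP saline A229), with means of 2.97 ± 2.71 CPM in MetOP saline, 0.975 ± 0.695 with semaglutide and 2.41 ± 0.347 in healthy controls. Nsdhl, a dehydrogenase in the removal of methyl groups, had means from 4.23 ± 2.95 to 6.08 ± 0.606 CPM. These 3 genes overlapped between the groups in each of the 7 group-to-group comparisons. Lbr had means from 23.7 ± 18.4 CPM with semaglutide to 41.7 ± 19.4 in MetOP saline, and 97.3 CPM in combination A320. Tm7sf2, a sterol reductase with the same activity as Lbr, had means from 0.417 to 1.43 CPM. The last members had few counts, and Dhcr7, the final reductase, was at 0 in 4 libraries and Hsd17b7 in 8. Dhcr7 had means from 0.566 to 1.41 CPM and Hsd17b7 from 0.159 to 0.487 CPM. Their fitted differences had SEs of at least 1.25 on the log2 scale. Hsd17b7 lies wholly under a gene on the opposite strand that had 11 counts over all libraries.

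Relations across libraries were computed after seeing the data, for 55 pairs, each member with Insig1 and with the muscle level. Cyp51 and Insig1 varied together over the 23 libraries (Pearson r = 0.68, permutation p = 0.00044, adjusted p = 0.0242, Spearman rho = 0.53, permutation p = 0.0096, adjusted p = 0.132). Without PYY A216 and combination A318, the libraries farthest from the median of Insig1, r was 0.48, and with group means removed it was 0.64. Srebf1 varied with the muscle level (r = 0.57, permutation p = 0.00432, adjusted p = 0.0792, rho = 0.64, permutation p = 0.00133, adjusted p = 0.0457). Without PYY A216 and combination A320 its r was 0.39, and with group means removed 0.61. Fdft1 had r = 0.40 (permutation p = 0.0567, adjusted p = 0.212) and rho = 0.63 (permutation p = 0.00166, adjusted p = 0.0457) with the muscle level, and r = 0.29 without the same libraries. Of the other 52 relations none had an adjusted p under 0.05 by r or rho. All libraries share the scaling to CPM, so these values describe the libraries together with their makeup.

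**Figure D5:**
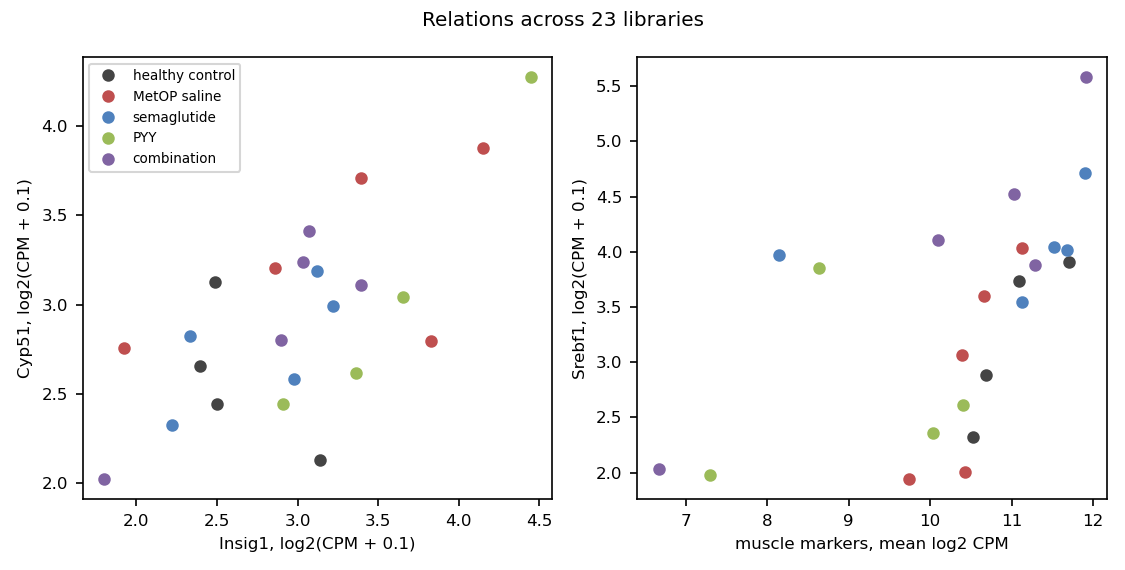
Each point is 1 of 23 libraries, coloured by group. Left, Cyp51 against Insig1, both as log2(CPM + 0.1), with r = 0.68. Right, Srebf1 as log2(CPM + 0.1) against the mean log2 CPM of muscle markers, with r = 0.57, where the libraries with the lowest muscle levels are combination A320 and PYY A216.

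Other genes of lipid metabolism were read from 5 lists of 59 genes named for this report, namely other sterol synthesis (4 genes), other fatty acid and glycerolipid synthesis (17), SREBP cleavage and degradation (12 listed, 10 matched), sterol export, storage and LXR signalling (15) and the isoprenoid branch (11). None of the 57 tested genes passed in any comparison, in either direction, by edgeR, and between 0 and 12 of them were under an unadjusted p of 0.05 in a comparison (12 in semaglutide versus PYY, 9 in semaglutide versus MetOP saline). These stand beside the 16.9% and 11.4% of all tested genes given above. In MetOP saline against healthy control, 9 of 10 SREBP cleavage and degradation genes and 9 of 11 isoprenoid genes were lower, with medians of -0.24 and -0.20. Acly, which supplies cytosolic acetyl-CoA, was at 0.70 ± 0.31 (edgeR adjusted p = 0.731) and Npc1, which exports cholesterol from lysosomes, at 0.88 ± 0.38 (edgeR adjusted p = 0.71). With semaglutide 9 of 10 SREBP cleavage and degradation genes were higher, with a median of 0.38, and the gene of smallest p, Rnf145, was the 1 that was lower (-0.90 ± 0.37, edgeR adjusted p = 0.395). The mean log2 CPM of this list was 2.60 in MetOP saline A229 and 2.35 in A265, and 3.41 to 3.82 in the other saline libraries. It was 3.57 to 3.76 with semaglutide and 3.43 to 3.74 in healthy controls. A229 and A265 also held the fewest non-mitochondrial counts, 4.28 and 5.25 M. Their part in both differences of this list was not tested.

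In semaglutide against PYY, Scd2 had the smallest p of these lists, at -2.25 ± 0.51 (edgeR adjusted p = 0.071). Abca1, the cholesterol exporter that LXR induces, was at -2.02 ± 0.80 (edgeR adjusted p = 0.22). Pdss2, of coenzyme Q synthesis, was at 1.02 ± 0.44 (edgeR adjusted p = 0.256). In semaglutide against MetOP saline, Mylip, an LXR target, was at -0.98 ± 0.40 (edgeR adjusted p = 0.393). In the combination against PYY, Mid1ip1, which activates acetyl-CoA carboxylase, was at 0.78 ± 0.28 (edgeR adjusted p = 0.689) and Fbxw7, which marks nuclear SREBPs for degradation, at 0.74 ± 0.33 (edgeR adjusted p = 0.768).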

How the data were processed

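Raw counts per Ensembl gene and FPKM values were deposited by the authors, 1 column per library, for 23 libraries. In the deposited values FPKM equals the count over gene length and a depth of 26.39 M times the DESeq2 size factor, in every library. Per the submitters' processing notes the reference was mRatBN7.2 and the tools included DESeq2 1.42.0. The aligner is not given in the sources used here, nor is the counter. The protocol in the labels describes library preparation with and without strand marking, so counts of overlapping genes are uncertain.

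All 23 libraries were fitted together in R 4.3.3 with edgeR 4.0.16 (quasi-likelihood test, TMM, filterByExpr, 18 residual degrees of freedom), 1 mean per group, with p-values adjusted over 15271 genes and calls at 0.05. Ratios used counts + 0.5 and exact permutation tests, and relations log2(CPM + 0.1) with 100000 permutations. FPKM was used to compare levels between genes and, in an alternative run, for the ratios. Another alternative run added 2 to each count of the ratios in place of 0.5. List levels are mean log2 CPM with a prior count of 2. Alternatives were DESeq2 1.42.0, limma 3.58.1 voom, other scaling, no filter, no mitochondrial genes, only the groups compared, the muscle level as covariate and each library left out.

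In each comparison the 3 members of smallest p were described in full, and of each further lipid list the gene of smallest p could be named. The members and lists were chosen with earlier results of these data known. Sequences came from RefSeq in GRCr8, gene positions from the deposited table. Floors of 3 counts cover counting error only.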

Additional observations from a re-analysis of the deposited data

Results flagged for a closer look

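Of 140 sets of levels tested (28 genes in 5 groups), 15 held a library far from the others of its group by Dixon's criterion. Its chance rate of about 1 in 20 holds for normal, independent values. Levels on the linear CPM scale and genes of the same libraries need not be so, and the count is not set against that rate. All but Sc5d in PYY A220 were the highest of their group. Combination A320 held 4 of them, with Sqle at 5.81 CPM (next highest 1.54), Lbr at 97.3 (36.9), Ebp at 3.83 (1.07) and Srebf2 at 13.2 (8.03). This library also had the lowest muscle level of all, at a mean log2 CPM of 6.67. In the same group Dhcr7 was at 2.83 CPM in combination A253 and at most 0.43 in the others.

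In healthy controls, library A389 held both INSIG genes above the others, with Insig1 at 8.71 CPM (next 5.56) and Insig2 at 6.13 (2.42). Lbr was at 48.5 CPM in healthy control A387 (next 26.7), Hsd17b7 at 0.593 in healthy control A390 (0.0423) and Scd at 6.99 in healthy control A392 (2.92).

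In MetOP saline, library A224 held Ebp at 5.8 CPM (next 2.61) and Stard4 at 3.31 (1.52). With semaglutide, Lbr was at 55.8 CPM in library A241 (next 23.01) and Stard4 at 2.54 in library A242 (1.33). Sc5d was at 0.614 CPM in PYY A220, below the others at 2.54 to 2.61.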

How the results depend on the processing

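No member was called by edgeR or limma voom in any comparison or alternative run. DESeq2 called 1, Stard4 in MetOP saline versus healthy control, among 51 genes that it called there. Of the alternative member medians, 221 moved by less than the within-group SD of the libraries' mean member level, and 3 moved by more. DESeq2 and voom medians were not in this tally. The 3 came from fits without 1 library: the median of semaglutide versus PYY ran from -0.54 to 0.026 (lowest without PYY A219, highest without PYY A216), and that of the interaction from -0.18 to 0.30 (highest without PYY A216). Smaller moves also turned signs. Without single libraries the median ran from -0.07 to 0.27 in PYY versus MetOP saline and from -0.22 to 0.02 in the combination versus MetOP saline. In the combination versus semaglutide it ran from -0.01 to 0.14. Of the ratios, Insig1 to Insig2 in PYY versus MetOP saline ran from -0.47 to 0.20 (sign turned without PYY A220). Srebf1 to Srebf2 ran from -0.22 to 0.52 in MetOP saline versus healthy control and from -0.44 to 0.65 in the combination versus semaglutide, none of which passed a test. The cause was not tested. No paired analysis was possible because the groups share no replicate numbers. Members with few counts, Hsd17b7, Dhcr7, Tm7sf2, Sc5d and Stard4, carry the widest errors.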
